A study of Mus musculus with 5 samples.

Results

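The genes described here encode the replicative helicase of dividing cells and a factor that helps to switch it on. They are Mcm2, Mcm3, Mcm4, Mcm5, Mcm6 and Mcm7, Cdc45, Gins1 and Gins2, together with Mcm10. These 10 genes, of 55498 reference genes in the files, were chosen by name for their role and were chosen from earlier results of the same comparison of propionate with chloride. Their differences between propionate and chloride are therefore a description and carry no test of their own. Transcripts listed under each gene name were summed to a gene level in TPM, a measure of abundance scaled for transcript length and for the total of its library. Transcripts assembled from the reads were added to the gene of the same locus and strand whose exons they overlapped.

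RNA came from GL261, a mouse glioma line grown in culture. Cells had been exposed for 24 h to 1 uM sodium chloride, the control salt, or to 1 uM sodium propionate, the salt of propionic acid, which intestinal microbes release from dietary fibre. The labels give the same dose for both salts and name no other agent or genetic change. There were 3 chloride libraries (replicates 1, 2 and 3) and 2 propionate libraries (replicates 2 and 3), each of stranded total RNA depleted of ribosomal RNA. Nothing in the labels says that replicates were separate cultures, so adjusted p-values measure only the spread between these libraries, which may be technical.

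In the bulk RNA, fewer cells in S phase and less RNA per cell cannot be told apart. The glial and glioma markers Nes, Vim, Cd44, Sox2, Gfap, S100b and Olig2 summed to between 5824 and 7437 TPM in chloride and between 6423 and 7207 TPM in propionate. Vim made up most of that sum, with group means of 6481 and 6469 TPM. Of the other glial markers, S100b was lower in both propionate libraries than in any chloride library (means 202 and 157 TPM, not called), Gfap was higher in both (4.52 and 5.91 TPM, not called), and Olig2 was higher in both but under the minimum for testing (0.544 and 0.879 TPM). Leukocyte markers summed to at most 0.096 and 0.221 TPM, endothelial markers to at most 0.0722 and 0.157 TPM and neuronal markers to at most 0.0423 and 0.0401 TPM, in the same order. Itgam, Cdh5, Kdr, Rbfox3 and Snap25 were listed at 0 in all 5 libraries. The haemoglobin gene Hba-a1, a red cell marker, was at 0.315, 0.865 and 0.256 TPM under chloride, against 1.67 and 1.33 TPM under propionate, while Hbb-bs was listed at 0 in all 5. Hba-a1 was thus higher in both propionate libraries, at a level under the minimum for testing, and the part of these markers in the results was not tested. Aligned sequence, as coverage times transcript length, came to between 6.53 and 7.03 Gb per library, and mean read coverage summed over a gene's transcripts ran from 20.8 for Gins2 to 489 for Mcm6.

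Before a cell enters S phase, the origin recognition complex with Cdc6 and Cdt1 loads rings built of the Mcm2 to Mcm7 proteins onto DNA, where they wait inactive. Kinases and loading factors then add Cdc45 and the GINS tetramer to each ring, which turns it into the CMG helicase (for Cdc45, MCM and GINS) that unwinds the DNA ahead of the polymerases. Mcm10 is no subunit of this helicase but is needed to activate it, while Gins3 and Gins4, which are subunits, fall outside the chosen genes and are given beside them. Transcription of many of these genes is known to rise towards S phase under the E2F factors, whose sites lie close to the start of transcription.

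Promoter entries from RefSeq (GRCm38.p6, the assembly that mm10 names) were matched for 7 of the 10 genes, Mcm2, Mcm3, Mcm5, Mcm6, Mcm7, Mcm10 and Cdc45. No entry was matched for Mcm4, Gins1 and Gins2. The 7 genes have 8 entries, since Mcm7 has starts at 138171883 and at 138171266. The 250 bases before the start were searched on both strands for the E2F-type motifs TTTCGCGC, TTTGGCGC, TTTCCCGC and TTTGCCGC, for the CCAAT box and for TTTGAA, the core of the element typical of late cell cycle genes. An E2F-type motif was found in 3 of the 8 entries, those of Mcm5, Mcm6 and Mcm7, against 1.86% of all 32851 entries. The Mcm7 entry with the motif starts at 138171883, which is 539 bases downstream of the 5′ end of the main Mcm7 transcript, ENSMUST00000000505. That motif, 165 bases before the RefSeq start, therefore lies within the span of the main transcript and not upstream of it. All 8 entries of the 7 genes had a CCAAT box, which 33.8% of all entries held. TTTGAA was found in 2 of the 8 entries, those of Mcm2 and Cdc45, against 16% of all entries. A match is only a match of letters and was not tested for binding.

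In Mcm5 and Mcm6 a pair of E2F-type motifs on opposite strands overlapped in a 12-base element, and the element of one gene is the reverse complement of the element of the other. These 2 stretches are shown because Mcm5 had the largest decrease among the chosen genes and Mcm6 the highest level. Capitals mark the E2F-type motifs and the CCAAT boxes of either strand, and each stretch reads 5′ to 3′ on the strand of its gene. The Mcm5 stretch runs from 203 to 64 bases before the RefSeq start (chr8:75109306-75109445, plus strand), and the Mcm6 stretch from 160 to 21 bases before it (chr1:128359726-128359865, minus strand). Neither upstream window overlaps an annotated exon.
Mcm5: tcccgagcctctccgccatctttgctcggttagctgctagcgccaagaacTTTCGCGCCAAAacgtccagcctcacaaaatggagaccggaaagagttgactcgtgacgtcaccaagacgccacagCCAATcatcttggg
Mcm6: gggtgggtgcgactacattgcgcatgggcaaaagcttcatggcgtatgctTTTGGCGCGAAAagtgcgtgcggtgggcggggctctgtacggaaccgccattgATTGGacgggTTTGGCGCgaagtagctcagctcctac

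The Mcm5 element starts 153 bases and the Mcm6 element 110 bases before the start. On either strand the element was present in 4 of the 32851 entries (0.0122%), those of Mcm5, Mcm6, Mycn and Msh3, a set named after the search was seen. Mcm6 carries a further TTTGGCGC at 47 bases before the start. When the 50 bases after the start were included, Mcm3 gained E2F-type motifs 20 and 39 bases into the transcribed part, and such a motif was then present in 2.26% of all entries.

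All 10 genes passed the minimum of 1 TPM averaged over the 5 libraries, and all 10 had a lower mean in propionate. The changes ran from -0.59 for Mcm5 to -0.08 for Gins2, with a median of -0.37, in log2(TPM + 1) as propionate minus chloride. Over all 13881 tested genes the median was -0.03 and 55.5% were below 0. Limma fitted across all tested genes called 2 of the 10 lower (Mcm5 and Mcm4) and none higher at a Benjamini-Hochberg adjusted p under 0.05, where 0.504% of all tested genes were called lower and 1.31% higher. For 8 of the 10 genes the groups did not overlap and propionate was lower, a pattern found in 19.7% of the genes tested. Because the genes were chosen with this comparison known, nothing is read from these counts.

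**Figure D1:**
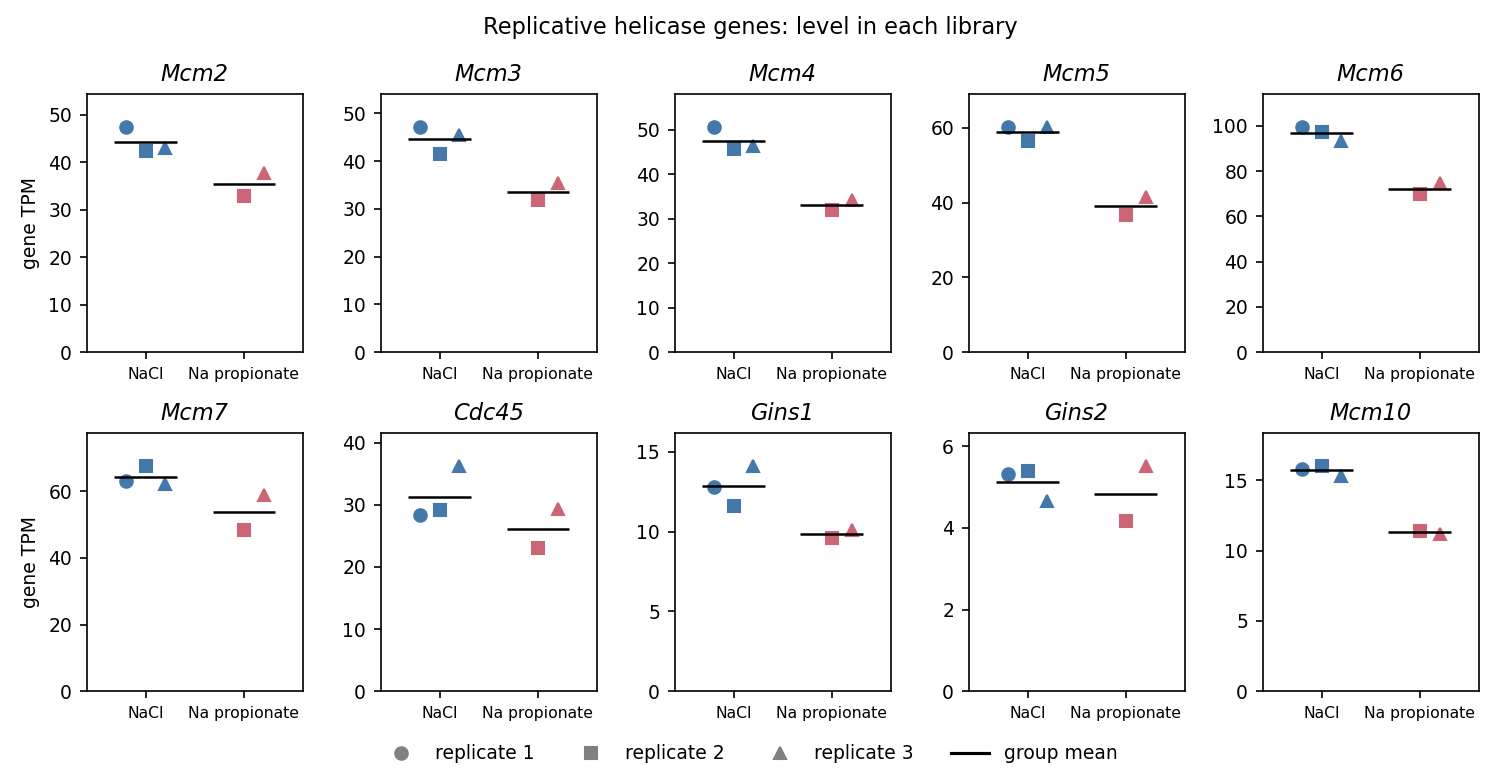
Gene TPM (y axes, each starting at 0) in the 3 sodium chloride libraries (blue) and the 2 sodium propionate libraries (red), with the marker shape giving the replicate and the bar the group mean. In 8 of the 10 genes both propionate points sit below all chloride points, and in Cdc45 and Gins2 the groups overlap.

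Mcm5 (ENSMUSG00000005410, chromosome 8, 75109569 to 75128439, plus strand, mm10) is the ring subunit that forms, with Mcm2, the gate through which DNA enters. It stood at 60.2, 56.4 and 60.2 TPM under chloride, against 36.6 and 41.4 TPM under propionate. The groups were well apart, and the highest propionate value was below the lowest chloride value by more than the range within either group. The mean went from 58.9 ± 2.15 (SD, n = 3) to 39 ± 3.41 TPM (SD, n = 2), a log2 change of -0.59 ± 0.10 (SE).

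Mcm4 (ENSMUSG00000022673, chromosome 16, 15623897 to 15637400, minus strand), whose N-terminal tail is a main target of the activating kinase Cdc7, was at 50.6, 45.6 and 46.3 TPM in chloride and at 32 and 34.3 TPM in propionate. Both propionate libraries were again below every chloride library. The change was -0.51 ± 0.10 (SE). Mcm4 was the member just inside the call threshold, with an adjusted p = 0.0431, and Mcm6 the one just outside, with an adjusted p = 0.0559.

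Both calls were lost with any 1 of the 5 libraries left out, with the replicate number as a block (adjusted p = 0.0588 for Mcm5 and 0.159 for Mcm4), with no filter on low values and with reference transcripts alone (adjusted p = 0.186 and 0.178). Over all settings tried, these included, the changes ran from -0.67 to -0.50 for Mcm5 and from -0.56 to -0.46 for Mcm4.

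Mcm6 (ENSMUSG00000026355, chromosome 1, 128331590 to 128359664, minus strand) was the most abundant member at 99.4, 97.4 and 93.5 TPM in chloride, against 69.7 and 74.6 TPM in propionate. The groups did not overlap, and the change of -0.42 ± 0.09 (SE) was not called. With a minimum mean of 5 TPM, which tests fewer genes, Mcm6 was called (adjusted p = 0.0481), and so it was with FPKM, with other scalings and with voom on aligned bases.

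Mcm3 (ENSMUSG00000041859, chromosome 1, 20802968 to 20820312, minus strand), the subunit that meets the origin recognition complex during ring loading, was at 47.1, 41.6 and 45.4 TPM in chloride and at 31.8 and 35.4 TPM in propionate. Its change was -0.40 ± 0.10 (SE). Mcm2 (ENSMUSG00000002870, chromosome 6, 88883474 to 88898780, minus strand), which also carries a histone-binding tail, was at 47.4, 42.3 and 43 TPM and at 32.9 and 37.8 TPM, a change of -0.32 ± 0.10 (SE). In both genes propionate replicate 3 was closer to the chloride libraries than propionate replicate 2, and neither gene was called as reported. Of 14 alternative settings, 3 called Mcm3 and 2 called Mcm2.

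Mcm7 (ENSMUSG00000029730, chromosome 5, 138164583 to 138172422, minus strand) had the smallest change in the ring. Chloride libraries held 63.2, 67.5 and 62.1 TPM, and propionate libraries 48.4 and 59 TPM. The groups were apart by a narrow margin because propionate replicate 3 came close to the chloride range, and the change was -0.26 ± 0.11 (SE). The propionate libraries differed most in 1 assembled transcript, MSTRG.18284.4, which is described with the isoforms.

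Cdc45 (ENSMUSG00000000028, chromosome 16, 18780447 to 18811987, minus strand), which bridges the ring and GINS, was at 28.4, 29.1 and 36.2 TPM in chloride and at 23 and 29.3 TPM in propionate. The groups overlapped, since propionate replicate 3 was above chloride replicates 1 and 2. The change of -0.25 ± 0.14 (SE) was not called.

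Among the GINS genes, Gins1 (ENSMUSG00000027454, chromosome 2, 150905400 to 150931280, plus strand) was at 12.8, 11.6 and 14.1 TPM in chloride and at 9.6 and 10.1 TPM in propionate, with no overlap and a change of -0.35 ± 0.12 (SE) that was not called. Gins2 (ENSMUSG00000031821, chromosome 8, 120578633 to 120589304, minus strand) was the lowest member, at 5.32, 5.4 and 4.66 TPM in chloride and 4.16 and 5.51 TPM in propionate. Its groups overlapped, with the highest of the 5 values in propionate replicate 3, and its change was -0.08 ± 0.15 (SE). Gins3 and Gins4 lay close to Gins2 in their changes, at -0.06 ± 0.11 (SE) and -0.08 ± 0.10 (SE), with adjusted p = 0.836 and 0.759. Gins3 was at 18.3, 18 and 16.6 TPM in chloride and 15.7 and 18.1 TPM in propionate, and Gins4 at 37.1, 32.2 and 35.3 TPM and at 31.6 and 34.2 TPM, so the groups overlapped in both.

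Mcm10 (ENSMUSG00000026669, chromosome 2, 4989714 to 5012791, minus strand), the activation factor, was at 15.8, 16 and 15.3 TPM in chloride and at 11.4 and 11.2 TPM in propionate. The groups were clearly apart. Its change of -0.45 ± 0.10 (SE) was the third in size after Mcm5 and Mcm4. It was not called as reported, but was called with FPKM (adjusted p = 0.042) and with median-of-ratios scaling (adjusted p = 0.0432).

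**Figure D2:**
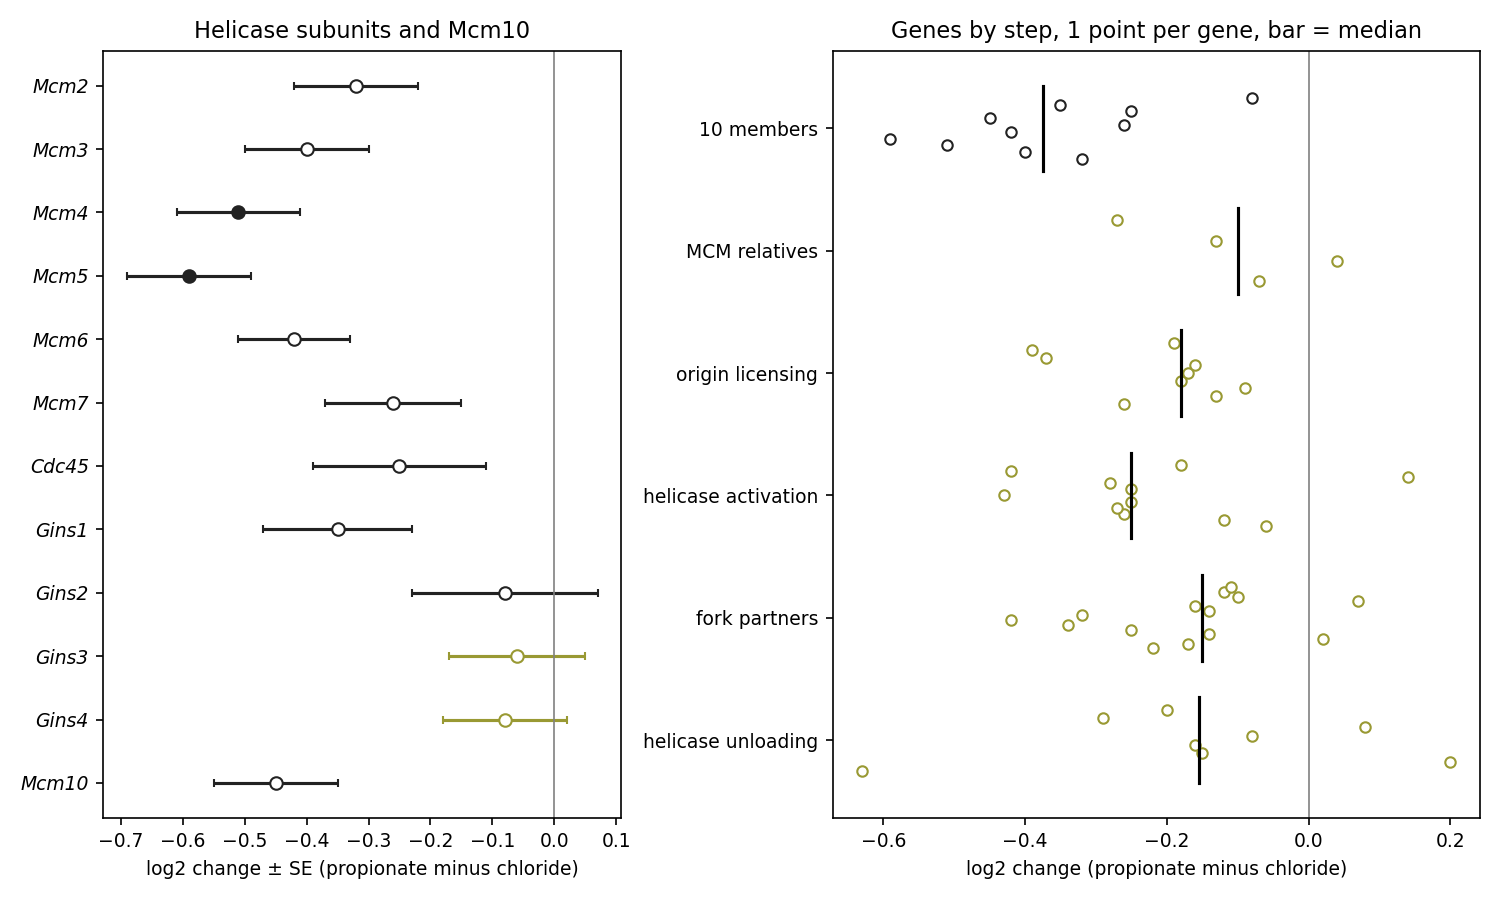
Left, log2 change with SE (x axis) of each helicase subunit gene and Mcm10, filled where called and in olive for Gins3 and Gins4, which are not among the 10 genes. Right, 1 point per gene for the 10 genes and for the genes of the surrounding steps, with the bar at the median; the 10 genes have a median of -0.37 and the surrounding groups medians from -0.25 to -0.10.

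Levels per length can be compared between genes. In chloride, Mcm6 was highest (93.5 to 99.4 TPM), followed by Mcm7 (62.1 to 67.5 TPM) and Mcm5 (56.4 to 60.2 TPM), whose ranges were apart. Mcm4, Mcm3 and Mcm2 did not differ from their neighbour in the order beyond their spread, with ranges of 45.6 to 50.6, 41.6 to 47.1 and 42.3 to 47.4 TPM. Below them came Cdc45 (28.4 to 36.2 TPM), Mcm10 (15.3 to 16 TPM), Gins1 (11.6 to 14.1 TPM) and Gins2 (4.66 to 5.4 TPM), each apart from the next.

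The share of each gene in the sum of Mcm2 to Mcm7 does not depend on how a library is scaled. That sum was 368, 351 and 350 TPM in chloride and 251 and 282 TPM in propionate. Mcm5 made up 16.4%, 16.1% and 17.2% of it in chloride and 14.6% and 14.7% in propionate, and Mcm4 13.8%, 13.0% and 13.2% against 12.7% and 12.1%. Both shares were lower in both propionate libraries than in any chloride library. The share of Mcm2 was above the chloride range (12.0% to 12.9%) at 13.1% and 13.4%, and the shares of Mcm3 and Mcm6 overlapped between the groups. Mcm7 took 17.2%, 19.3% and 17.7% in chloride and 19.3% and 20.9% in propionate. With reference transcripts only, the Mcm7 mean was 17.7% in chloride and 17.6% in propionate, and the Mcm5 share in propionate replicate 3 (15.3%) was inside the chloride range (15.2% to 16.6%).

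**Figure D3:**
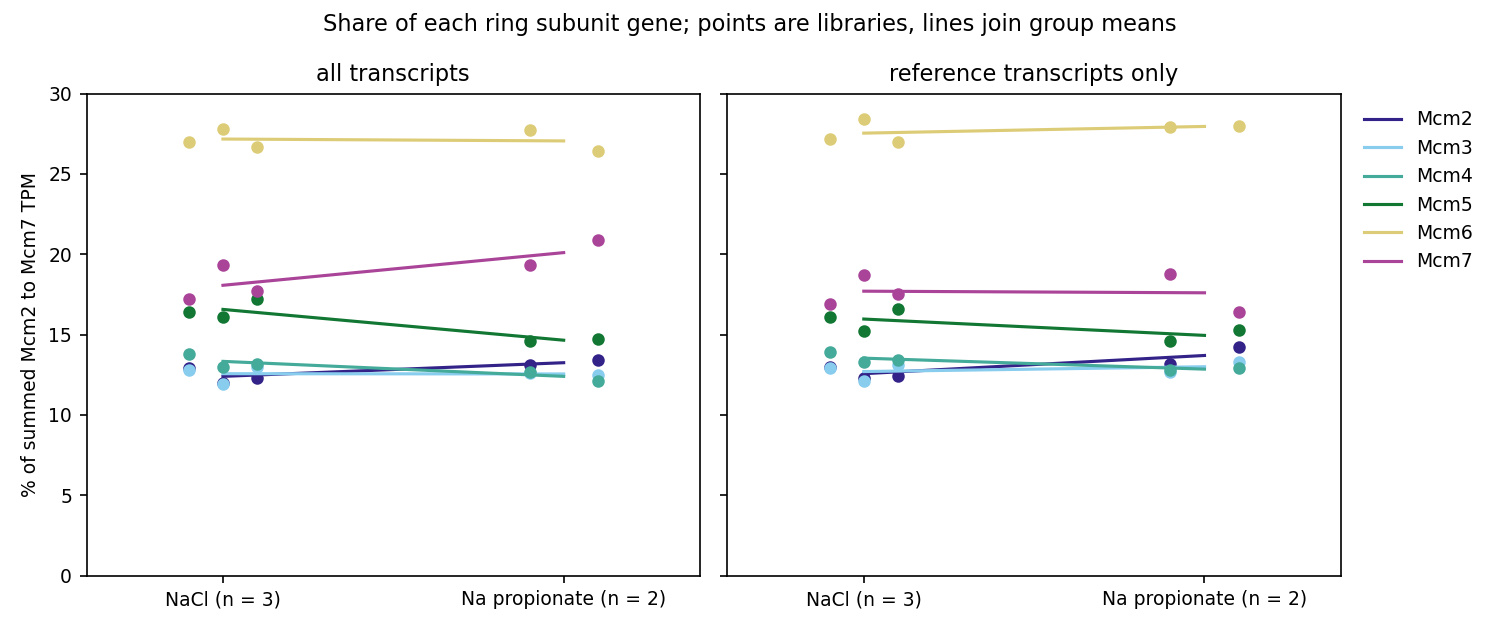
Share of each ring gene in the summed TPM of Mcm2 to Mcm7 (y axis, percent) in each library, with lines between group means, from all transcripts (left) and from reference transcripts only (right). Mcm6 holds the largest share in every library, and the upward slope of the Mcm7 line on the left, from 18.0% to 20.1%, is absent on the right, where the means are 17.7% and 17.6%.

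Gins1 to Gins4 together came to 73.4, 67.2 and 70.7 TPM in chloride and to 61.1 and 67.9 TPM in propionate, so these sums overlapped. The ratio of the Mcm2 to Mcm7 sum to the Gins1 to Gins4 sum was 5.01, 5.22 and 4.96 in chloride and 4.11 and 4.16 in propionate. Against Cdc45 the ratio of the ring sum overlapped between the groups, at 12.9, 12 and 9.69 and at 10.9 and 9.65. Mki67, a general marker of cycling cells, was at 38.3, 32.8 and 35.8 TPM in chloride and at 35.1 and 36.8 TPM in propionate, and the ring sum over Mki67 was 9.62, 10.7 and 9.79 against 7.17 and 7.68. Top2a, the topoisomerase of late S phase to mitosis, was at 191, 180 and 190 TPM and at 196 and 204 TPM, a change of 0.10 ± 0.08 (SE, adjusted p = 0.599). Ccnb1, the mitotic cyclin, was at 78.7, 72.3 and 77.1 TPM and at 67.4 and 70.9 TPM. Its change was -0.13 ± 0.09 (SE, adjusted p = 0.484). Both propionate libraries were below every chloride library in Ccnb1 and above every chloride library in Top2a, and neither gene was called. The part of cell cycle stage in these values was not tested.

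How coverage was divided among transcripts differed between libraries in several of the genes. In Cdc45, transcripts assembled from the reads held 97.6%, 97.8% and 58.4% of TPM in chloride and 98.1% and 0.1% in propionate. The transcript MSTRG.8706.1, with 20 exons, carried 27.7 and 28.5 TPM in chloride replicates 1 and 2 and 22.6 TPM in propionate replicate 2, and at most 0.062 TPM in the other two libraries. There, MSTRG.8706.3 (21 TPM in chloride replicate 3) and the reference transcript ENSMUST00000096990 (14.6 TPM in chloride replicate 3 and 22.3 TPM in propionate replicate 3) took its place. MSTRG.8706.1 differs from the reference transcript ENSMUST00000000028 by 1 intron and in length by few bases, at 2165 against 2161. With reference transcripts only, Cdc45 would read 0.677, 0.653 and 15 TPM in chloride and 0.429 and 29.2 TPM in propionate, a change of 0.89 in the opposite direction.

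In Mcm7 the split stood apart in propionate replicate 3. Its main transcript, ENSMUST00000000505, was at 56.5, 55.2 and 53.2 TPM in chloride and at 42 and 38.4 TPM in propionate. The assembled MSTRG.18284.4 was at 1.44, 3.52 and 1.6 TPM in chloride and 1.5 TPM in propionate replicate 2, but at 15.2 TPM in propionate replicate 3. It shares 13 introns with the main transcript and differs in its first exon (chr5:138170810-138171266), in the intron after it and at its 3′ end. That end is at 138164819, against 138164583 in the main transcript. The 5′ end of MSTRG.18284.4 at 138171266 is the same base as a RefSeq start of Mcm7, and that entry held no E2F-type motif. The Mcm7 entry that held one starts at 138171883, inside the span of the main transcript. With reference transcripts only, Mcm7 stood at 61.8, 64 and 60.5 TPM in chloride and 46.9 and 43.8 TPM in propionate, and its change was -0.45 in place of -0.26.

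In Mcm5 the assembled transcript MSTRG.22330.1 was a minor part, at 1.43, 4.27 and 2.77 TPM in chloride and 0 and 0.475 TPM in propionate. The main transcript ENSMUST00000164309 alone was at 40.2, 44 and 38.4 TPM and at 26.8 and 31.3 TPM, with no overlap. ENSMUST00000212426 varied from 3.07 to 17.2 TPM among the chloride libraries. In Mcm6 the second transcript ENSMUST00000190495 was at 17.1, 6.09 and 22.3 TPM under chloride and 13.4 and 16.7 TPM under propionate, which overlapped. Assembled transcripts held between 3.4% and 11.4% of Mcm10, and its reference transcript ENSMUST00000102985 was at 3.33 TPM in chloride replicate 1 and at most 0.555 TPM elsewhere. In Mcm2, Mcm3, Mcm4, Mcm6, Gins1 and Gins2 the assembled share was 0.0% in every library.

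**Figure D4:**
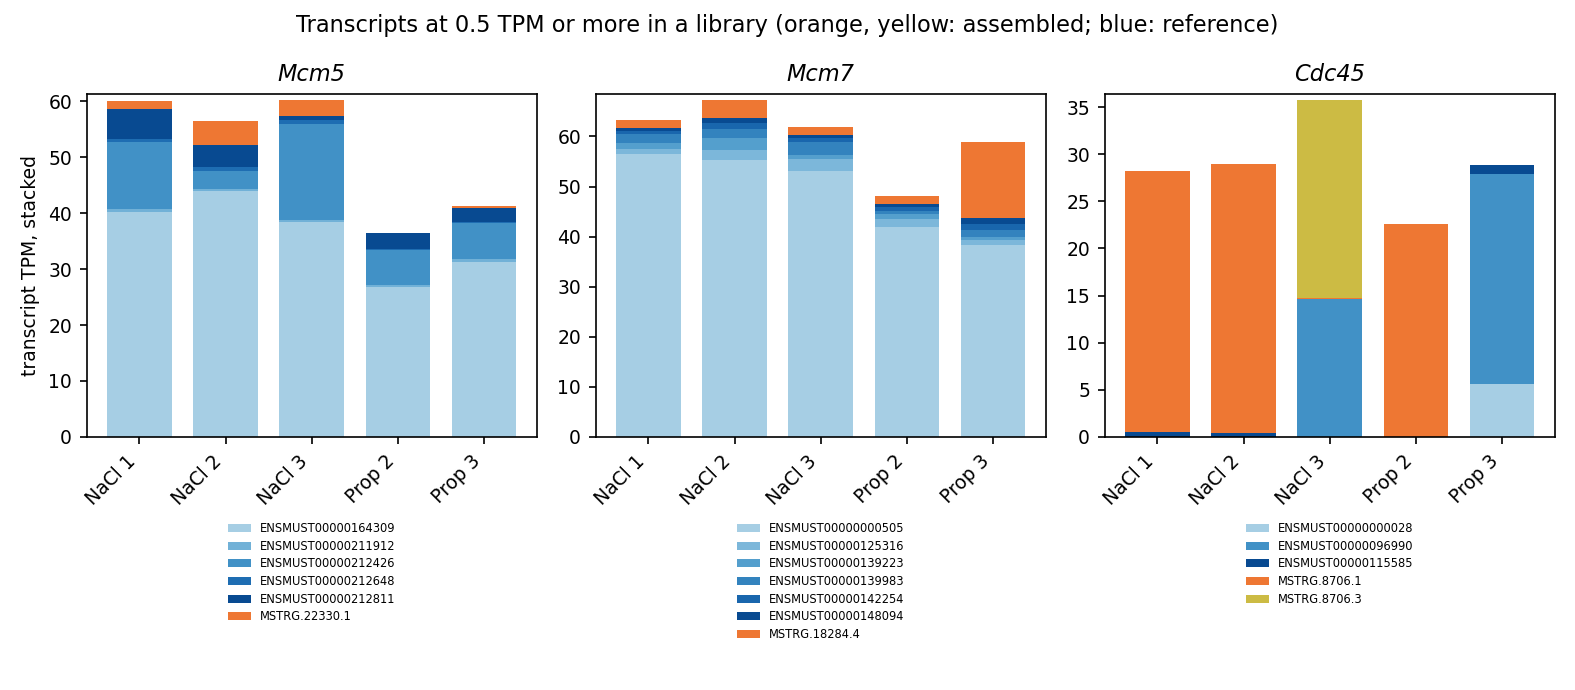
Stacked TPM (y axis) of the transcripts of Mcm5, Mcm7 and Cdc45 that reached 0.5 TPM in a library, for the 3 sodium chloride (NaCl) and 2 sodium propionate (Prop) libraries; assembled transcripts are orange or yellow and reference transcripts blue. The orange block of Mcm7 is 15.2 TPM in propionate replicate 3 and at most 3.52 TPM elsewhere, and the bars of Cdc45 change colour between libraries of the same group.

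Genes of the steps before and after the helicase were taken from lists written with earlier results of these data known. None of the 48 tested genes, Gins3 and Gins4 included, was called in either direction by limma, where 0.504% of tested genes were called lower and 1.31% higher. At an unadjusted p under 0.05, 14 were lower and none higher, where 8.9% of all tested genes were lower and 7.93% higher. Voom on aligned bases called 4 of them lower and 2.58% of all tested genes. Of the 48 genes, 42 had a change below 0, with a median of -0.16.

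Origin licensing genes had 9 of 9 changes below 0 and a median of -0.18. Cdc6, the ATPase that loads the ring, was at 8.85, 8.26 and 7.66 TPM in chloride and 5.96 and 6.34 TPM in propionate (adjusted p = 0.158). Its partner Cdt1 was at 17.3, 19.1 and 18.3 TPM and at 12.1 and 15.5 TPM (adjusted p = 0.17). In both genes the groups did not overlap.

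Among 11 genes of helicase activation, 10 were below 0 and the median was -0.25. Ccne2, a cyclin of S phase entry, was at 11.8, 14.4 and 11.7 TPM and at 9.53 and 8.79 TPM (adjusted p = 0.14), and its kinase partner Cdk2 at 33.7, 35.1 and 33.7 TPM and at 27.7 and 28.1 TPM (adjusted p = 0.163). Both pairs of groups were apart, and Ccne1, the sister cyclin of Ccne2, had a change of 0.14 ± 0.13 (SE).

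Fork partners, which include the polymerase that rides on the helicase, had 12 of 14 changes below 0 and a median of -0.15. Pole3 and Pole4, the small subunits of that leading-strand polymerase, were at 44.5, 41.5 and 43.4 TPM and at 40.9, 43.3 and 41.4 TPM in chloride. In propionate they were at 28.6 and 35.5 TPM and at 31.8 and 35 TPM (adjusted p = 0.106 and 0.138), without overlap.

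Helicase unloading genes were more mixed, with 6 of 8 below 0 and a median of -0.15. Lrr1, which marks the terminated helicase for removal, was low throughout at 3.02, 2.33 and 4.1 TPM in chloride and 2.04 and 1.28 TPM in propionate (adjusted p = 0.199). Ufd1, a cofactor of the unfolding ATPase Vcp, was at 34.2, 28.3 and 30.6 TPM and at 24.4 and 25.8 TPM (adjusted p = 0.226).

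Relatives of the MCM genes that are not part of this helicase, Mcm8, Mcm9, Mcmbp, Mcm3ap and Mcmdc2, had a median of -0.10 over their 4 tested members. Mcm3ap, which is named for its binding to Mcm3, had a change of -0.27 ± 0.12 (SE, adjusted p = 0.313), and Mcmbp, an MCM-binding protein, of -0.13 ± 0.10 (SE, adjusted p = 0.564). Mcm8 and Mcm9, which form a helicase of DNA repair, had changes of -0.07 ± 0.13 and 0.04 ± 0.13 (SE).

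Several of the 10 genes have an annotated start within 1000 bases of the start of a gene on the opposite strand. Distances are given between annotated starts and do not show whether the transcribed parts overlap. Mcm4 lies head to head with Prkdc, a DNA repair kinase, with 466 bases between the starts. Prkdc was at 6.57, 5.94 and 6.49 TPM in chloride and 5.85 and 5.81 TPM in propionate, a change of -0.10 ± 0.11 (SE, adjusted p = 0.711), beside -0.51 for Mcm4. The starts of Mcm7 and Ap4m1, an adaptor subunit of vesicle traffic, are 420 bases apart. Ap4m1 had a change of -0.19 ± 0.11 (SE, adjusted p = 0.413). The starts of Cdc45 and Ufd1 are 208 bases apart, and the change of Ufd1 was -0.29 ± 0.11 (SE), beside -0.25 for Cdc45. The assembled Cdc45 transcript MSTRG.8706.3, at 21 TPM in chloride replicate 3 and 0 elsewhere, runs to 18812253, against 18811987 for the annotated start. It therefore spans the Ufd1 start, and the part of reads from this overlap was not tested. The annotated start of Gins1 lies 659 bases from that of the lipase gene Abhd12, which had a change of -0.15 ± 0.13 (SE, adjusted p = 0.599). However, ENSMUST00000028948, which held most of the Gins1 TPM in every library, starts at 150909594, against 150905400 for the annotated gene. The start of this main transcript is thus more than 1000 bases from Abhd12. The start of Gins2 lies 227 bases from that of the non-coding Gm10614, which was under 1 TPM in every library. The differences between neighbours were not tested.

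The genes whose levels over the 5 libraries were most like the median profile of the 10 were ranked by the root mean square difference of their log2(TPM + 1) deviations, among 7002 other genes with a mean of at least 10 TPM. The closest were Bcat1 and Psat1 (0.022 each), then Ddx39, Mthfd1l and S100b (0.026 each), where the median over the ranked genes was 0.196. Among the 10 themselves this distance ran from 0.033 for Mcm6 and 0.036 for Mcm3 to 0.156 for Cdc45 and 0.180 for Gins2. Bcat1, a branched-chain aminotransferase, was at 20.9, 19.4 and 19.9 TPM in chloride and 13.9 and 15.9 TPM in propionate. Psat1, an enzyme of serine synthesis, was at 65.8, 62.9 and 66.8 TPM and at 47.6 and 51.9 TPM. In both genes the groups were apart and propionate replicate 2 was the lowest library, which follows from picking them for likeness to the median profile. Propionate replicate 2 was also the lowest library in all of the 10 genes except Mcm10. The median over all tested genes was lowest in this library too, at -0.08 from the chloride mean in log2(TPM + 1). The other propionate library had 0.03. For the 10 genes the same medians were -0.42 and -0.32. The part of this wider shift in the lowest values was not tested.

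**Figure D5:**
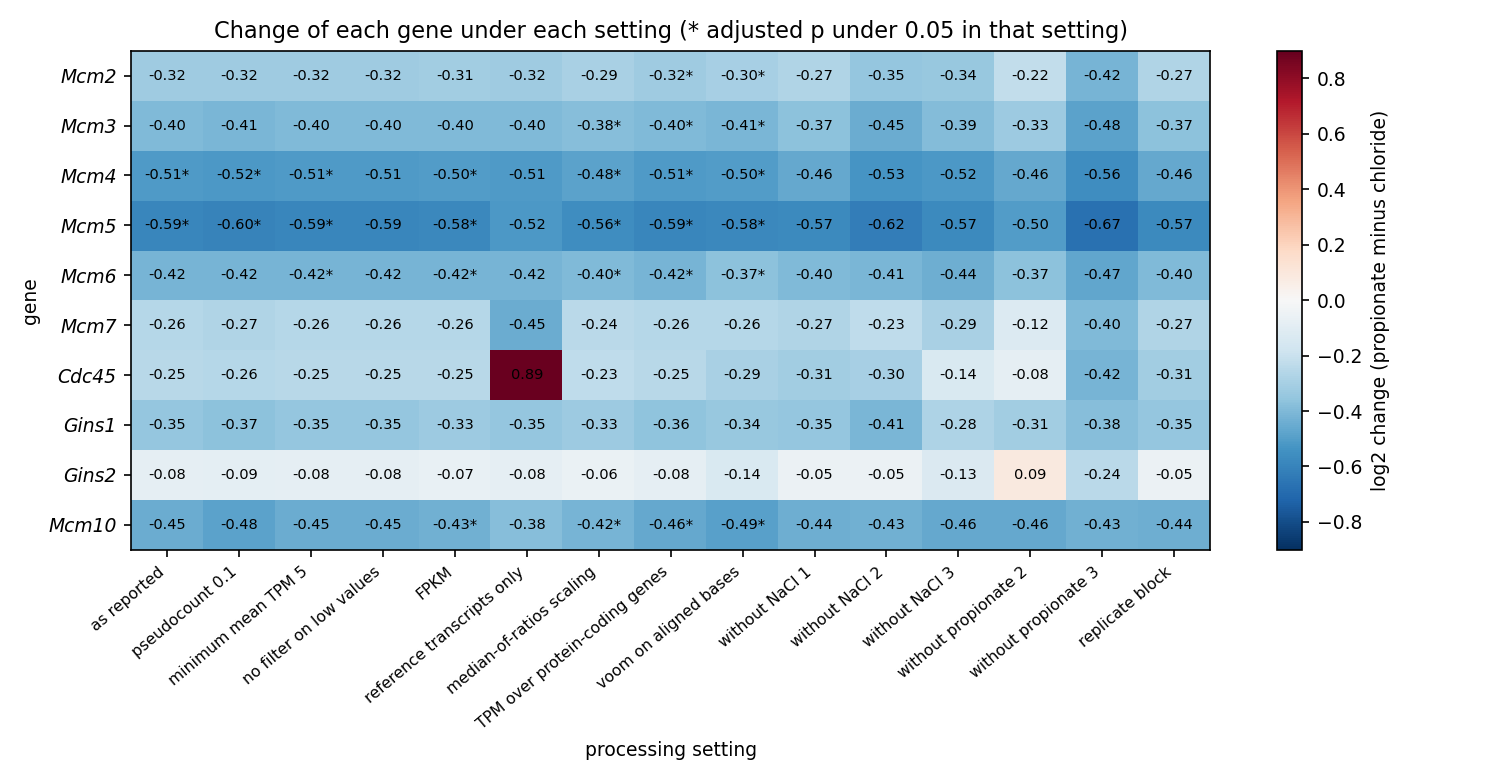
Log2 change (colour scale and printed value) of each of the 10 genes (rows) under each processing setting (columns), with an asterisk where the adjusted p was under 0.05 in that setting. Mcm5 and Mcm4 carry an asterisk in 7 columns each, and the values above 0 are those of Cdc45 with reference transcripts only (0.89) and of Gins2 without propionate replicate 2 (0.09).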

How the data were processed

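Per the labels' protocols, libraries were made from total RNA with a stranded, ribosome-depleting kit. Tools named in the submitters' processing notes are HISAT2, fastp, bcl2fastq and StringTie, with the build mm10. Per the file headers, StringTie 2.1.1 estimated TPM, FPKM and coverage for 157895 transcripts of one merged annotation with no strand option. Reads of overlapping antisense genes may therefore not all be told apart. The deposited tables used here hold no read counts. Gene identity of Ensembl transcripts came from GENCODE M21 (99.81% had the same start), and each of 12224 assembled transcripts was added to the same-strand gene with the largest exon overlap. Genes with a mean of at least 1 TPM entered two-sided moderated tests on log2(TPM + 1) with a mean-variance trend (limma 3.58.1, R 4.3.3), a scale that understates the change of low genes. The threshold was a Benjamini-Hochberg adjusted p under 0.05 over all 13881 tested genes. Tested on simulated data with independent noise, the fit recovered large changes more often than small ones. Its share of false calls there was above the nominal level. The share in the real data was not measured, so calls near the threshold may be less secure than their adjusted p states.

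One marker gene is not reported here. The genes, lists and tests were chosen with earlier results of these data known. The named genes were the 10 members, those called in each list or else the 2 with the smallest p, head-to-head neighbours within 1000 bases and the 5 most similar profiles. Mki67, Top2a, Ccnb1, Ccne1, Mcm8 and Mcm9 were added from the lists after their values were seen. Alternatives were another pseudocount (0.1), a minimum of 5 TPM or none, FPKM, reference transcripts only, median-of-ratios and protein-coding scaling, voom on aligned bases, each library left out and the replicate number as a block.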

Additional observations from a re-analysis of the deposited data

How the results depend on the processing

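As reported, 182 genes were called higher, 70 lower, 2 of the 10 helicase genes lower and none of the surrounding genes lower. With no filter on low values these counts of higher, lower and helicase genes were 2, 1 and 0, with reference transcripts only 5, 6 and 0, and with FPKM 118 genes and 4 helicase genes were lower. Median-of-ratios scaling called 371 higher and 157 lower, with 5 helicase and 1 surrounding gene, protein-coding TPM 629 and 405, with 6 and 2, and voom 707 and 358, with 6 and 4. With each library left out, 8 to 126 genes were higher and 7 to 46 lower, and 0 helicase genes were called. Leaving out chloride replicate 1 gave 80 higher and 15 lower, chloride replicate 2 gave 111 and 29, chloride replicate 3 gave 126 and 46, propionate replicate 2 gave 108 and 21, and propionate replicate 3 gave 8 and 7. A lone propionate library was assumed to vary like the chloride libraries. The median change of the helicase genes was -0.42 to -0.32 with each library left out, and below 0 in every setting. The median of all tested genes moved too. It was -0.08 without propionate replicate 3, where the helicase genes had -0.42, and 0.03 without propionate replicate 2, where they had -0.32. Cdc45 changed sign with reference transcripts only (0.89) and Gins2 without propionate replicate 2 (0.09, in a range from -0.24 to 0.09). With reference transcripts only, propionate shares of the ring sum were 13.7% for Mcm2, 13.0% for Mcm3, 15.0% for Mcm5 and 17.6% for Mcm7, and the chloride share of Mcm5 was 16.0%, because assembled transcripts are left out. For the other shifts the cause was not tested.

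The replicate numbers were not shown to pair the libraries: deviations from the group means correlated at -0.22 for replicate 2 and -0.20 for replicate 3 over 13881 genes. With only 2 propionate libraries, their deviations are exact opposites. The unmatched pairs therefore gave the same values with the sign reversed, 0.22 for chloride 2 with propionate 3 and 0.20 for chloride 3 with propionate 2. With the replicate block 264 genes were higher and 104 lower, and 0 helicase genes were called.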

Other observations

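The precursors of the microRNAs miR-25, miR-93 and miR-106b lie inside the Mcm7 gene. Mir106b was listed at 1.6, 2.12 and 3.06 TPM under chloride, against 0.744 and 1.74 TPM under propionate, and the groups overlapped. Mir25 and Mir93 were listed at no more than 0.0753 and 0.0008 TPM. Reads from these precursors cannot be told apart from reads of the Mcm7 intron that holds them, and total RNA libraries of this kind do not measure mature microRNAs.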
